A study of Mus musculus with 27 samples.

Results

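The comparison described here is the fetal to adult contrast in mouse intestine labelled KO for Taf4. Ileum of 8-week adults was set against intestine of embryos at E17.5, with 3 libraries in each group. Its members are the genes with a mean of at least 10 in either KO column of the deposited table, which were 17312 of 27316 genes. For every member the contrast was log2((adult KO + 1) / (embryo KO + 1)), so that a positive value means higher in adult KO. The same contrast between 8-week adult WT ileum and E17.5 embryo WT intestine, also with 3 libraries in each group, was used to read which differences were present with Taf4 intact. The whole series holds 27 libraries in 9 groups.

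All mice were of the mixed strain C57Bl6/129sv. By the study's methods, adult KO mice carried Taf4 lox/lox with VilCreERT2 and were sampled days after tamoxifen, the drug that activates this recombinase. Embryo KO mice carried Taf4 lox/lox with VilCre, which is active without a drug from mid-gestation. The WT groups were Taf4 lox/lox mice without Cre, so both floxed alleles were shared by all 4 groups. The labels instead describe tamoxifen injection for both KO groups and injection of oil for both WT groups, and which description holds is not known. The Cre line, the time since deletion and the stretch of gut sampled all differ with stage and cannot be told apart from it. Villin drives both recombinases in epithelium, so stroma, muscle, nerves, vessels and blood cells of the KO tissue keep Taf4. In bulk tissue, fewer cells of a type and less RNA per cell cannot be told apart.

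In suckling mice the small intestine lines its villi with enterocytes that take up milk by endocytosis, split lactose with lactase, and make arginine from citrulline. The embryos here were sampled before birth, and thus before any milk. Around weaning these cells switch to sucrase, trehalase and arginase, Paneth cells fill the crypt base with antimicrobial peptides, and bacteria and lymphocytes settle the mucosa. Taf4 encodes a subunit of TFIID, the complex that recognises core promoters and recruits RNA polymerase II.

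Each deposited value was the mean of 3 libraries, in normalized counts per kb of transcript. The low values lay on fixed steps, each worth 1 read in 1 library. This allowed the whole reads of the single libraries to be recovered for 98.0% of the genes tried in adult KO and 98.0% in embryo KO. The recovered libraries are called A, B and C in each group. They were not matched to the labels' replicate numbers. The methods name 3 animals per group. Mean depth per library, estimated from the means and the step sizes, was 18.96 M gene-assigned reads in adult KO, 19.29 M in embryo KO, 18.81 M in adult WT and 18.64 M in embryo WT. Genes with very high counts could not be split into libraries, and for these only the authors' means are given, with no test. Y-linked transcripts such as Ddx3y were found in embryo KO library B and embryo WT library C and were near 0 in the other 10 libraries. The adult groups thus held no library with these transcripts.

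Taf4a itself, the targeted gene, was read first. It had 490, 476 and 516 counts per kb in adult KO and 300, 275 and 324 in embryo KO. In WT it had 366, 370 and 382 in adults and 208, 212 and 256 in embryos. The adult KO libraries lay above all others, so the level of the whole gene was not lower in either KO group. A sum over the gene cannot show the loss of single exons, so it does not check the deletion. The contrast of Taf4a was 0.72 in KO and 0.72 in WT, and turns negative in both under a scaling on pan-epithelial genes that is described further on. Its paralogue Taf4b had 67.3, 55.7 and 56.3 counts per kb in adult KO and 37.2, 38.4 and 41.5 in embryo KO. Of the 16 TFIID subunits on the list, 1 passed the test of adult KO against embryo KO, namely Taf7, which was lower (log2 fold change -1.24 ± 0.14 SE, adjusted p = 6.9e-06, limma).

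Tissue identity was checked against marker genes. The bile acid transporter gene Slc10a2, a marker of ileum, had 4177, 3779 and 3935 counts per kb in adult KO and 20.4, 15.1 and 17 in embryo KO. The keratin gene Krt20 of the upper villus averaged 18381 in adult KO and 663 in embryo KO. All 16 pan-epithelial genes were members. Their median contrast was 1.71, which turns negative under a scaling on these same genes, and 5 of the 7 that could be tested were higher in adult KO, while the summed level of those 7 ranged over 23892 to 24794 in adult KO libraries and 6227 to 7485 in embryo KO libraries. Summed fibroblast and matrix genes ran the other way, with 5332 to 8895 counts per kb over 12 genes in adult KO and 15867 to 18125 in embryo KO. Markers of epithelium and of stroma thus moved with stage in opposite directions, and their part in the results below was not tested.

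Over all members, 3312 genes (19.1%) stood past 2-fold higher in adult KO and 2971 (17.2%) past 2-fold lower. Past 4-fold, 1665 genes (9.62%) were higher and 1230 (7.10%) were lower. The limma test on recovered reads covered 16642 members. It called 2823 genes higher (17% of those tested) and 2701 lower (16.2%) at an adjusted p under 0.05 and a change of more than 2-fold. Words such as rose, fell, higher and lower below refer to these calls unless a mean is given alone. Counts within a list are to be read against these shares of 17% and 16.2%. The median contrast over all members was 0.04. Scaling the columns to equal totals moved every KO contrast by -0.26 and gave 2277 genes higher and 3467 lower. Scaling on the pan-epithelial genes moved it by -1.88 and gave 689 higher and 12909 lower, so a group whose median lies between 0 and 1.88 changes sign under that scaling.

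Libraries of a group lay close together. Across members, Pearson's r of the log2 values was 0.948 to 0.965 among adult KO libraries and 0.970 to 0.974 among embryo KO libraries, against 0.738 to 0.786 between the stages. Genes are not independent replicates, and these values are a description. Adult KO library A stood apart for B cell genes, and these are given with and without it. It also stood well above libraries B and C for single genes such as Gata4, Slc2a2, Slc28a2, Cck and Hist1h1c. The group values of these genes include it.

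**Figure D1:**
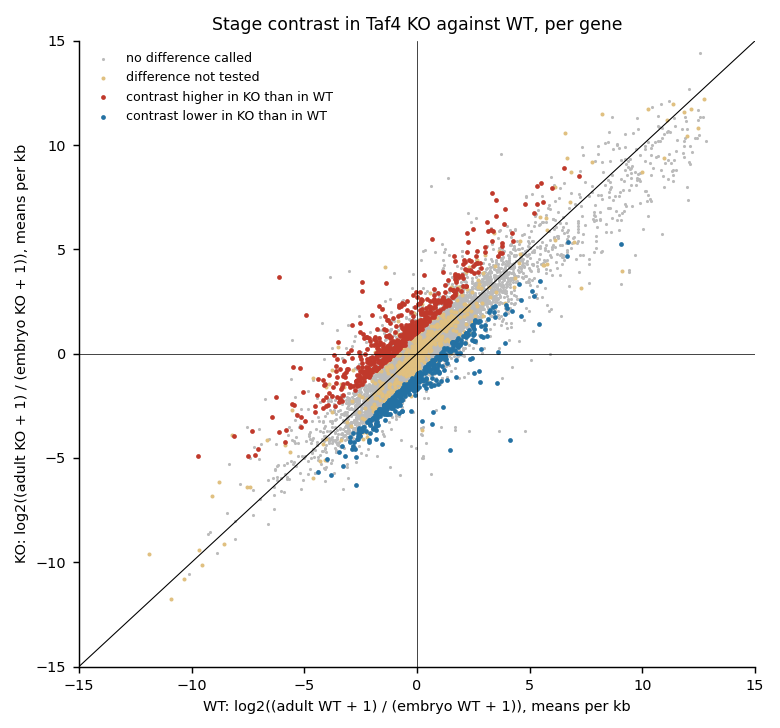
Each point is a gene with a mean of at least 10 in a KO and in a WT column, with the WT stage contrast on the x axis and the KO stage contrast on the y axis, both in log2 units of means per kb. Most genes lie near the diagonal, where the contrasts are equal. Colours mark genes whose contrast was called higher (red) or lower (blue) in KO than in WT by limma, and tan marks genes that could not be tested.

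Genes of Paneth cells and of the response to bacteria were among those with the largest contrasts towards adult KO. The mean of Reg3g, a lectin that kills Gram-positive bacteria, was 53655 counts per kb in adult KO and 12.5 in embryo KO (contrast 11.96). Reg3b, a Reg gene of the same cluster on chromosome 6, averaged 141734 in adult KO and 40.6 in embryo KO. The alpha-defensin genes Defa20, Defa21 and Defa22, which encode Paneth cell peptides, had means of 34914, 59926 and 57664 in adult KO, and means of 9.30, 18.3 and 23.6 in embryo KO. Defensin copies are nearly identical, so the split of reads among them is uncertain. Defa5, a defensin gene low enough to be split by library, had 7697, 5367 and 5525 counts per kb in adult KO and 2.27, 4.52 and 0 in embryo KO (log2 fold change 11.11 ± 1.84 SE, adjusted p = 0.00016, limma). Every adult KO library was far above every embryo KO library. Sis, the gene of sucrase-isomaltase, averaged 25500 in adult KO and 7.78 in embryo KO. Pigr, which carries antibody across the epithelium, averaged 93123 in adult KO and 59.5 in embryo KO. The WT contrasts were 11.33 for Reg3g, 10.26 for Reg3b, 12.16 for Defa20, 11.85 for Defa21, 11.09 for Defa22 and 10.70 for Defa5. Those of Sis and Pigr were 8.20 and 6.58, against KO contrasts of 11.50 and 10.59, and neither gene was tested.

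The promoters of some of these genes are shown because TFIID binds at this position. The stretches are the 60 bases before the RefSeq start in build GRCm38.p6, 5′ to 3′ on the gene's strand, with the motif TATAAA in capitals. They are the first 4 genes towards adult KO and the first 2 towards embryo KO, in order of contrast among protein coding genes with a mean of at least 100, whose window from 40 to 16 bases before the start holds the motif on the gene's strand.
Reg3g (chr6:78468875-78468934, minus strand): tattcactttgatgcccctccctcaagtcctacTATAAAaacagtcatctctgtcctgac
Reg3b (chr6:78370825-78370884, plus strand): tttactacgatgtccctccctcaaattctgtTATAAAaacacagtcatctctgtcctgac
Defa20 (chr8:21509198-21509257, plus strand): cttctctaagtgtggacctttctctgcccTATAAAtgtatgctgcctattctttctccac
Defa21 (chr8:21025485-21025544, plus strand): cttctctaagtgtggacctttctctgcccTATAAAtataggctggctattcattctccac
Mamdc4 (chr2:25571317-25571376, minus strand): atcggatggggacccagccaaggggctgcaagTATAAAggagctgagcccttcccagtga
Fabp1 (chr6:71199819-71199878, plus strand): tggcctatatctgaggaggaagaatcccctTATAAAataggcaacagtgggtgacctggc
Since they were chosen for the motif, they say nothing of how common it is among such genes. Over all 32851 promoters of the RefSeq table, 1.99% held it in this window. Only 62.7% of the members had a promoter in the table, so sets of members were not compared. A match is a description of letters and not a measured site.

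Fetal growth genes and genes of milk uptake were among those with the largest contrasts towards embryo KO. Of the protein coding genes with a mean of at least 100, the largest contrasts were those of Afp, the fetal plasma protein alpha-fetoprotein, and Mfi2, an iron-binding membrane protein gene. Afp averaged 2.82 counts per kb in adult KO and 6907 in embryo KO (contrast -10.82), and Mfi2 averaged 0.840 in adult KO and 2037 in embryo KO (contrast -10.11), and neither was tested. Of the liver-type plasma protein list, to which Afp belongs, 5 of 10 tested fell, with a median contrast of -1.25 in KO and -3.89 in WT. H19, an imprinted RNA, averaged 100 counts per kb in adult KO and 356037 in embryo KO. Igf2, the fetal growth factor at the same imprinted locus, averaged 83.4 in adult KO and 47498 in embryo KO. Dlk1, an imprinted membrane protein gene, had 3.25, 8.77 and 6.30 in adult KO and 5699, 5669 and 4884 in embryo KO (log2 fold change -9.79 ± 0.45 SE, adjusted p = 2.7e-09, limma). Igf2bp1, which encodes an RNA-binding protein of fetal tissue, had 22.8, 4.48 and 7.37 in adult KO and 2422, 2320 and 2659 in embryo KO (log2 fold change -7.95 ± 0.50 SE). The groups were far apart for both genes. Of the 18 members of the imprinted and fetal growth list, 17 stood past 2-fold lower in adult KO, and 10 of the 11 that could be tested fell. The list's median contrast was -5.10, against 0.04 over all members.

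The milk-related group followed. Lct, which encodes lactase, averaged 2.63 counts per kb in adult KO and 2796 in embryo KO. Mamdc4, which encodes the apical endosomal glycoprotein of suckling enterocytes, averaged 33.7 in adult KO and 23586 in embryo KO. Folr1, a folate receptor gene, had 3.81, 12.4 and 6.15 in adult KO and 3818, 4847 and 3501 in embryo KO (log2 fold change -9.10 ± 0.60 SE, adjusted p = 5.2e-08, limma). Ass1, an enzyme of arginine synthesis, averaged 395 in adult KO and 10417 in embryo KO. Prdm1, the transcription factor that holds the suckling state, had 67.1, 41.9 and 45.5 in adult KO and 575, 596 and 580 in embryo KO, and fell (log2 fold change -3.53 ± 0.25 SE, adjusted p = 1.1e-07, limma). Of 18 suckling-type members, 11 stood past 2-fold lower, and 4 of the 10 tested fell. Their median contrast was -1.36 in KO and -2.27 in WT.

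Genes that come on with weaning moved the other way. All 8 of the weaning-induced genes that could be tested rose, and 13 of 14 members stood past 2-fold higher, with a median contrast of 3.40. Xdh, xanthine dehydrogenase, had 1561, 1153 and 1167 counts per kb in adult KO and 27.5, 39.2 and 27.7 in embryo KO. Arg2, an arginase gene, had 75.8, 237 and 103 in adult KO and 2.98, 1.19 and 3.53 in embryo KO (log2 fold change 5.54 ± 0.83 SE, adjusted p = 7.1e-05, limma). The exception was Apoa4, a chylomicron apolipoprotein, whose mean was 113 in adult KO and 2007 in embryo KO. In WT the mean of Apoa4 was also lower in adults, at 450 against 45399 in embryos. Its contrast was -4.14 in KO and -6.65 in WT, and it was not tested. Of the 22 brush border genes, 18 stood past 2-fold higher and 7 of the 8 tested rose, with a median contrast of 1.60 that turns negative under the pan-epithelial scaling. Slc6a19, the neutral amino acid transporter of the villus, had 2363, 2332 and 3416 in adult KO and 331, 390 and 210 in embryo KO (log2 fold change 3.15 ± 0.24 SE, adjusted p = 1.9e-07, limma).

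Lipid handling split in both directions. Among 20 lipid absorption members, 6 stood past 2-fold higher and 6 past 2-fold lower, and of the 11 tested 4 rose and 3 fell. Abcg5, one partner of the sterol exporter of the apical membrane, had 1528, 647 and 1360 counts per kb in adult KO and 15.3, 16.9 and 21.3 in embryo KO (log2 fold change 5.94 ± 0.60 SE, adjusted p = 2.4e-06, limma). Its partner Abcg8 had 911, 444 and 838 in adult KO and 12.9, 16.8 and 20.8 in embryo KO. Both exporter genes were separated between the stages by more than their spread. Fabp1, a fatty acid carrier of proximal gut, averaged 108 in adult KO and 12352 in embryo KO, and Apoc3, a plasma lipoprotein gene, fell (log2 fold change -4.20 ± 0.30 SE, adjusted p = 1.1e-07, limma). The list's median was -0.41 in KO and -1.63 in WT.

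More of the bile acid genes of the ileum rose than fell. Of 10 members, 6 stood past 2-fold higher and 3 past 2-fold lower, and 5 of the 9 tested rose while 3 fell. Slc10a2, the uptake transporter whose values stand above, rose (log2 fold change 7.81 ± 0.35 SE, adjusted p = 2.3e-09, limma). Abcc3, a basolateral exporter, had 3623, 5147 and 4665 in adult KO and 109, 159 and 135 in embryo KO (log2 fold change 5.06 ± 0.21 SE, adjusted p = 1.4e-09, limma). Fgf15, the ileal hormone that reports bile acid to the liver, ran against them, with 0.581, 2.85 and 4.49 in adult KO and 131, 56.8 and 77.0 in embryo KO (log2 fold change -5.14 ± 1.04 SE, adjusted p = 0.0008, limma). Nr0b2, a repressor induced by bile acid, also fell (log2 fold change -6.83 ± 0.77 SE, adjusted p = 6e-06, limma). Genes of proximal small intestine were lower in adult KO, 5 of 8 tested, with 1 higher. Gata4, which sets proximal identity, had 135, 21.4 and 19 in adult KO and 919, 1165 and 914 in embryo KO. The embryo samples were described as intestine and the adult ones as ileum, so region and stage cannot be told apart here. Library A was the highest adult KO library for Gata4, and the share of proximal tissue in single libraries was not tested.

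Detoxification genes rose in 14 of 21 tested and fell in 2. Their median contrast was 1.81, which becomes -0.07 when moved by the full step of the pan-epithelial scaling. Ces2c, a carboxylesterase gene, had 7148, 7083 and 6663 counts per kb in adult KO and 8.69, 9.90 and 22.0 in embryo KO (log2 fold change 9.06 ± 0.34 SE, adjusted p = 5.9e-10, limma). Cyp4f14, a fatty acid hydroxylase gene, had 3932, 4964 and 7294 in adult KO and 11.6, 17 and 6.11 in embryo KO. Against the list, Ugt2b5, a glucuronosyltransferase gene, had 274, 536 and 350 in adult KO and 1728, 2083 and 1647 in embryo KO, and fell (log2 fold change -2.28 ± 0.18 SE, adjusted p = 2.7e-07, limma).

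Secretory lineages were read one by one. Paneth cell genes rose in 11 of 12 tested, and 17 of 18 members stood past 2-fold higher, with a median contrast of 6.82. Goblet cell genes rose in 9 of 11 tested, with a median of 3.05. Muc2, the main gel mucin, averaged 23632 counts per kb in adult KO and 391 in embryo KO, and Spink4, a goblet cell peptide, rose (log2 fold change 4.27 ± 0.22 SE, adjusted p = 5.9e-09, limma). Enteroendocrine genes split, with 3 of 19 tested higher and 6 lower, where 17% of all tested members were higher and 16.2% lower. Cck, the hormone cholecystokinin, had 72.3, 25.0 and 21.9 in adult KO and 261, 249 and 252 in embryo KO. Pcsk1, a prohormone convertase, had 184, 154 and 170 in adult KO and 28.3, 28.6 and 20.5 in embryo KO. The first fell and the second rose. Tuft cell genes also split, 5 of 11 tested being higher and 3 lower, and Trpm5, the taste channel of tuft cells, fell (log2 fold change -2.65 ± 0.49 SE, adjusted p = 0.0004, limma).

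Of the crypt base stem cell genes, 5 of 21 tested were higher and 1 was lower in adult KO. Over all tested members 17% were higher and 16.2% lower. The list's median contrast of 0.13 turns negative under equal totals and under the pan-epithelial scaling. Olfm4, a stem cell marker, had 1397, 1886 and 2115 counts per kb in adult KO and 28.2, 32.7 and 24.5 in embryo KO (log2 fold change 5.96 ± 0.28 SE, adjusted p = 2.8e-09, limma). Prom1, another crypt marker, had 731, 853 and 944 in adult KO and 149, 122 and 127 in embryo KO. Of the intestinal transcription factors, 12 of 27 tested rose and 3 fell, with a median contrast of 0.90 that turns negative under the pan-epithelial scaling. Vdr, the vitamin D receptor, had 18182, 16031 and 18472 in adult KO and 323, 288 and 338 in embryo KO (log2 fold change 5.79 ± 0.14 SE, adjusted p = 3.9e-11, limma). Klf4, a factor of the differentiating villus and of goblet cells, rose by a log2 fold change of 2.51 ± 0.10 SE. Its contrast is 0.63 under the pan-epithelial scaling.

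Immune genes rose as groups. All 20 tested butyrophilin-like and intraepithelial lymphocyte genes were higher in adult KO, with a median contrast of 3.72. Cd8a, a T cell coreceptor gene, had 108, 78.3 and 103 counts per kb in adult KO and 1.92, 0.818 and 1.62 in embryo KO (log2 fold change 5.99 ± 0.62 SE, adjusted p = 3e-06, limma). Antigen presentation genes rose in 21 of 24 tested, among them H2-Eb1, a class II chain, with 4451, 2835 and 2744 in adult KO and 128, 168 and 173 in embryo KO. Type I interferon genes rose in 16 of 23 tested, with Irf7, a factor that amplifies the interferon response, as the example (log2 fold change 3.70 ± 0.37 SE, adjusted p = 2.3e-06, limma). Macrophage, dendritic and mast cell genes rose in 11 of 20 tested, with a median of 1.15 that turns negative under the pan-epithelial scaling.

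B cell genes depended on adult KO library A. Their median contrast over the 15 genes with recovered reads was 4.96 with all libraries and 1.95 without that library, and 8 of the 15 tested rose with all libraries. Among 250 immunoglobulin gene segments that were members, 237 stood past 4-fold higher, and 160 of the 249 tested rose. Without library A, 228 of the 249 with recovered reads in adult KO stood past 4-fold higher. Over all 16754 members with recovered reads in adult KO, 1593 stood past 4-fold higher with library A and 1471 without it.

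The other tissues of the gut wall were read list by list. Fibroblast and matrix genes fell in 8 of 12 tested, with a median contrast of -2.12. Mfap4, a microfibril gene, had 201, 363 and 267 counts per kb in adult KO and 2556, 2439 and 2574 in embryo KO (log2 fold change -3.22 ± 0.19 SE, adjusted p = 1.7e-08, limma). Enteric neuron and glia genes fell in 13 of 19 tested and 1 rose, with a median contrast of -2.10. Smooth muscle and Cajal cell genes fell in 2 of 7 tested, with a median of -0.65. Of the mesothelial genes 1 of 7 tested fell, with a median of 0.15 that turns negative under equal totals and under the pan-epithelial scaling. Over all tested members 16.2% fell. Endothelial genes fell in 10 of 13 tested, with Cdh5, the junction cadherin of vessels, at a log2 fold change of -2.80 ± 0.10 SE. Erythroid genes fell in 7 of 9 tested and 1 rose, and Hbb-b1, an adult beta globin, had 153, 426 and 300 in adult KO and 11916, 15125 and 10165 in embryo KO. The globin copies share sequence, so their separate values are uncertain. Exocrine pancreas genes summed to 10.0 to 22.1 over 7 genes in adult KO libraries and to 35.8 to 669.9 in embryo KO libraries, and only 1 of the 7 tested fell. Pancreas in the dissected tissue was not tested.

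DNA replication genes fell in 7 of 27 tested, with a median contrast of -0.71. Ccne1, cyclin E, had 214, 241 and 160 counts per kb in adult KO and 755, 825 and 792 in embryo KO (log2 fold change -1.96 ± 0.14 SE, adjusted p = 1e-07, limma). Mitosis genes fell in 2 of 23 tested. The share lower over all tested members was 16.2%, which is above that of the mitosis genes. Ribosome biogenesis genes had a median contrast of -0.61, and 0 of the 19 tested fell. Replication-type histone genes ran the other way, with 13 of 24 tested higher, and a median of 1.14 that turns negative under the pan-epithelial scaling. Hist1h1c, a linker histone gene, had 15722, 3884 and 5354 in adult KO and 1287, 1553 and 1043 in embryo KO. Library A again stood highest, and the groups did not overlap. Clock genes rose in 7 of 16 tested, with a median of 0.72 that turns negative under the pan-epithelial scaling. Among them was Npas2, a partner of Bmal1, with 1952, 1738 and 1896 in adult KO and 98.6, 79.0 and 91.9 in embryo KO.

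Hox genes split. Of 24 tested, 10 fell and 5 rose, with a median of -0.30. Hoxa4 had 8.34, 11.8 and 10.8 counts per kb in adult KO and 210, 206 and 214 in embryo KO (log2 fold change -4.30 ± 0.32 SE, adjusted p = 1.6e-07, limma). Hoxa5 and Hoxd3 fell as well. Hoxb9, a posterior gene, had 1301, 1235 and 1225 in adult KO and 22.1, 28.6 and 36.1 in embryo KO (log2 fold change 5.45 ± 0.15 SE, adjusted p = 9.6e-11, limma). These genes mark position along the body axis, and the samples differed in gut region as well as in stage.

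Some members stood beside each other in the genome. Among 14818 protein coding members with a position in build mm9, 13 runs of at least 5 neighbours were past 4-fold in the same direction, 11 higher and 2 lower, with 97 genes in all. The longest was the run of 19 genes in the defensin cluster that starts at Defa21 on chromosome 8 (22165224 to 22845943), with a median contrast of 9.37. The run of 13 genes from H2-DMa on chromosome 17 (34272127 to 34478568) holds the class II genes and had a median of 4.27. Reg3b opens a run of 6 Reg genes on chromosome 6 with a median of 7.83. The lower runs were 9 genes from Gprasp2 on chromosome X with a median of -2.52, and 6 genes from Hoxa2 on chromosome 6 with a median of -2.75.

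**Figure D2:**
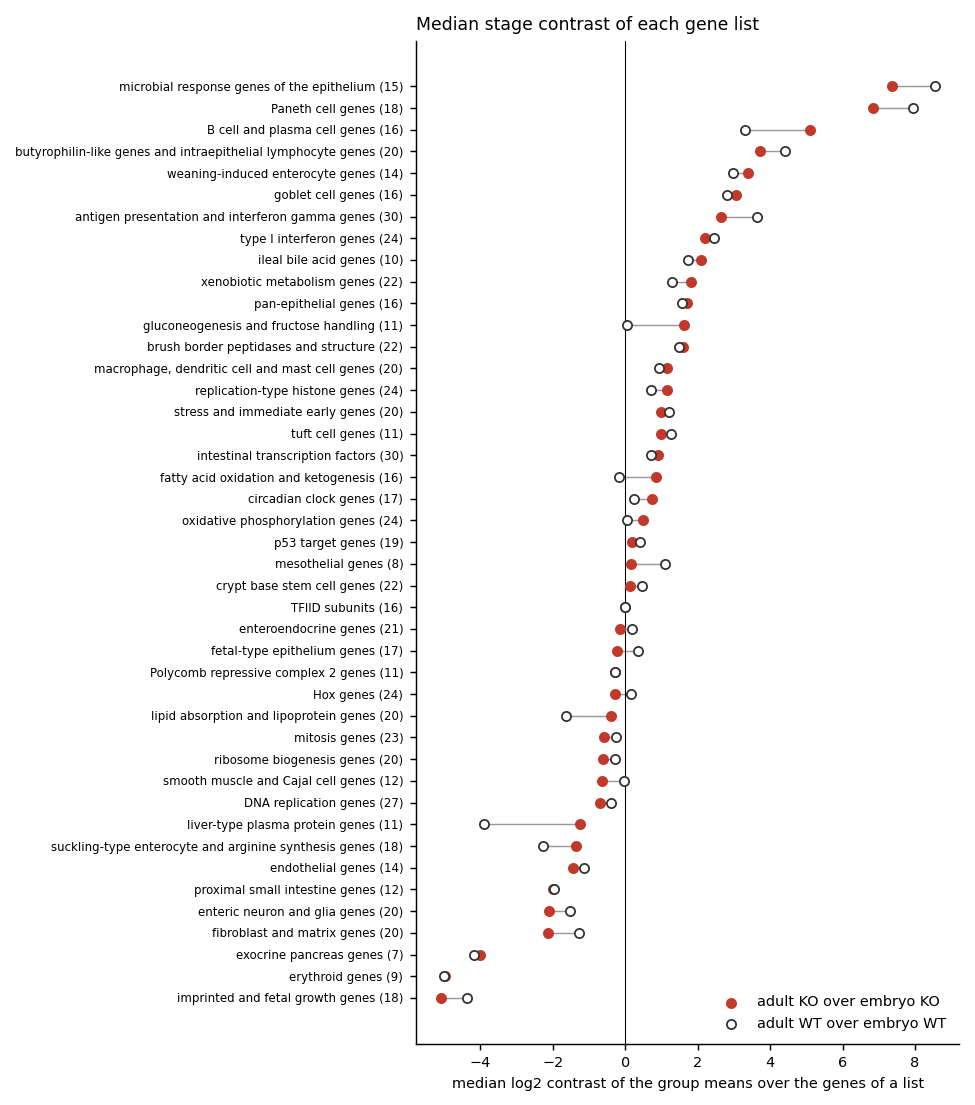
Median log2 stage contrast of each gene list over its members (number in brackets), with the KO contrast as filled points and the WT contrast as open points. Imprinted and fetal growth genes lie lowest at -5.10 in KO, and the gluconeogenesis and fructose list is at 1.62 in KO and 0.05 in WT.

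The KO contrast was then read against the WT contrast, to see which stage differences were present in both. Across 16660 genes with a mean of at least 10 in a KO and in a WT column, Pearson's r between the contrasts was 0.902 and Spearman's rho was 0.837. The 2 contrasts share no library, but all points rest on the same 12 libraries and genes are not independent, so no p is given. Of the 4275 genes past 2-fold in both, 67 had opposite signs.

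Of the 1651 genes past 4-fold higher in adult WT, 1271 (77.0%) were past 4-fold higher in adult KO too. A further 240 were between 2-fold and 4-fold in the same direction, 123 lay within 2-fold, and 17 were past 2-fold in the opposite direction. Of the 1035 genes past 4-fold lower in adult WT, 683 (66.0%) were past 4-fold lower in adult KO, 165 were between 2-fold and 4-fold, 162 lay within 2-fold and 25 were opposite. A threshold on both sides loses genes that lie near it, so these shares are not shares of genes with an unchanged contrast. Read the other way, 684 of the 1230 genes past 4-fold lower in adult KO (55.6%) were past 4-fold in WT, and 1221 of the 1665 past 4-fold higher in adult KO (73.3%).

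**Figure D3:**
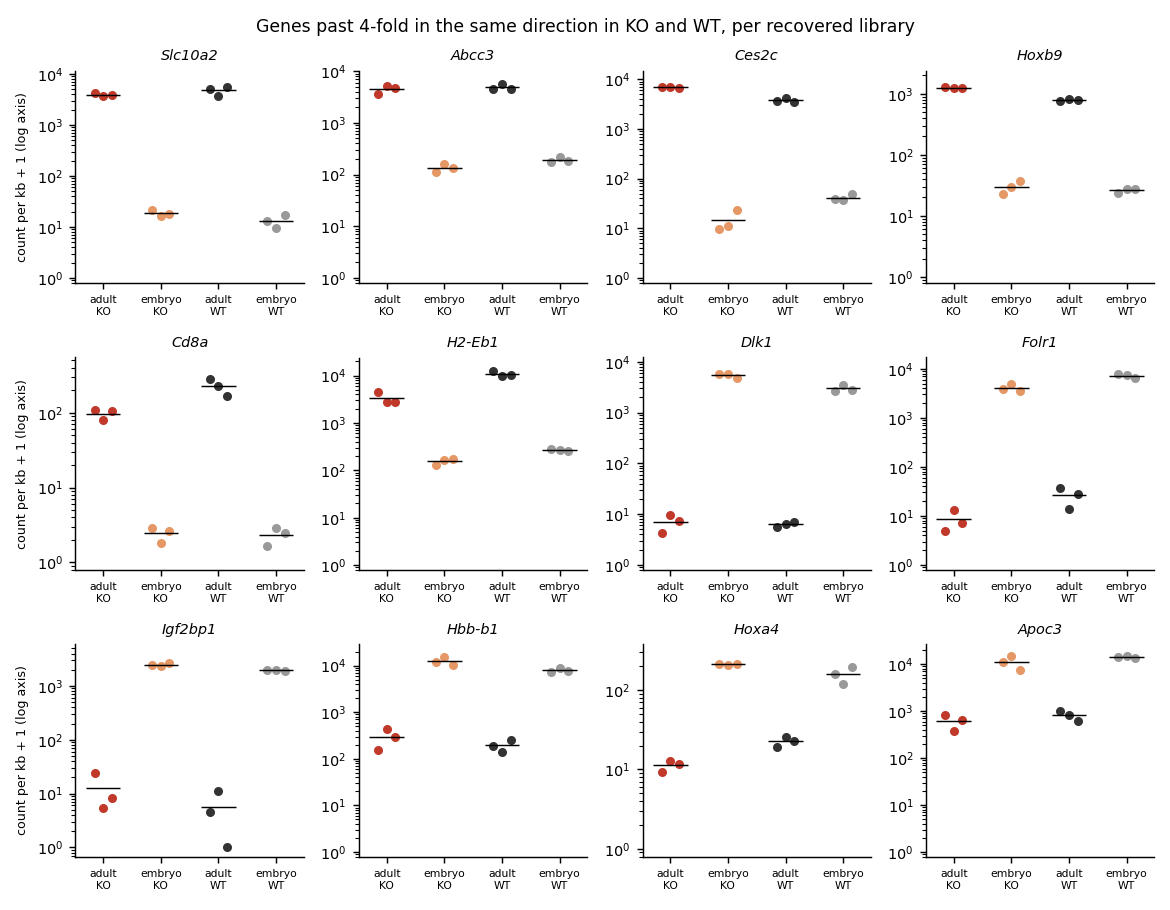
Counts per kb plus 1, on a log axis, in each recovered library of adult KO, embryo KO, adult WT and embryo WT, with bars at the group means. In all 12 genes the KO stages are apart in the same direction as the WT stages, as in Hoxb9 and Dlk1.

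Kept genes included several of those above. Hoxb9 had 748, 826 and 795 counts per kb in adult WT and 22.3, 26.4 and 26.8 in embryo WT, so that every adult WT library was below every adult KO library. Slc10a2 averaged 4853 in adult WT and 12.2 in embryo WT. Dlk1 averaged 5.39 in adult WT and 2999 in embryo WT. In the interaction test, which asks whether the KO contrast differs from the WT contrast, none of these 3 genes passed (adjusted p = 0.15, 0.35 and 0.45, limma), which does not show that the contrasts are equal. By the means alone, the KO contrast was past 2-fold higher than the WT contrast in 1521 of 18033 genes (8.43%) and past 2-fold lower in 1410 (7.82%). The interaction test covered 17338 genes. It called the contrast higher in KO for 610 (3.52%) and lower in KO for 452 (2.61%). Of the 610, in 504 genes (82.6%) the KO to WT difference was larger in embryos than in adults, with a median log2 KO to WT difference of -1.41 in embryos and 0.17 in adults. Of the 452, the same was so in 183 genes (40.5%), with medians of 0.58 in embryos and -0.75 in adults. Tissue markers also differed between the embryo groups. Summed pan-epithelial genes, 7 with recovered reads, ranged over 6227 to 7485 in embryo KO and 8772 to 9044 in embryo WT. Summed fibroblast and matrix genes, 12 with recovered reads, ranged over 15867 to 18125 and 9796 to 12475. In adults both sums overlapped between KO and WT. The part of tissue make-up in the interaction calls was not tested.

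Sugar and fat metabolism held several of the genes with a higher contrast in KO. Gpd1, glycerol-3-phosphate dehydrogenase, had 4778, 4202 and 4220 counts per kb in adult KO and 88.9, 111 and 90.3 in embryo KO, and 2877, 2475 and 3329 in adult WT and 1774, 1812 and 1956 in embryo WT. The low group was embryo KO alone. Its contrast was 5.49 in KO and 0.65 in WT. Fbp1, an enzyme of gluconeogenesis, had 566, 484 and 411 in adult KO and 46.0, 43.5 and 44.1 in embryo KO, against 209, 207 and 382 in adult WT and 1575, 1736 and 1025 in embryo WT. It rose in KO and ran the opposite way in WT. Slc2a2, a glucose transporter, had 224, 20.0 and 33.9 in adult KO and 23.8, 23.7 and 28.0 in embryo KO, with overlap, against 39.9, 5.74 and 36.5 in adult WT and 905, 796 and 889 in embryo WT. By the interaction test the contrast was higher in KO for 6 of 10 tested suckling-type genes, with 1 lower, for 6 of 11 lipid absorption genes and for 5 of 16 clock genes. It was higher for 5 of 10 tested genes of gluconeogenesis and fructose handling, and for 9 of 14 of fatty acid oxidation, among them Ehhadh, a peroxisomal enzyme. The medians of these last lists were 1.62 and 0.84 in KO, both negative under the pan-epithelial scaling, and 0.05 and -0.17 in WT.

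Other genes had a mean more than 4-fold lower in adult WT than in embryo WT and lay within 2-fold between the KO stages. The pan-epithelial scaling moves the WT contrasts as well, by up to -1.52. Under it the KO contrasts of the genes named here all leave the 2-fold band and are lower in adult KO. They run from -1.28 for Slc37a2 to -2.49 for Leap2. Leap2, a hormone of liver and gut that antagonises ghrelin, had 19.8, 13.6 and 7.66 counts per kb in adult KO and 25.7, 28.8 and 14.2 in embryo KO, against 15.8, 40.1 and 29.4 in adult WT and 1014, 1016 and 1160 in embryo WT. Abcb11, a bile salt exporter gene whose KO means were both too low for membership, had 3.01, 0.842 and 2.08 in adult KO and 3.48, 2.08 and 4.12 in embryo KO, against 1.22, 0 and 0.228 in adult WT and 290, 357 and 272 in embryo WT. Slc37a2, a sugar phosphate transporter gene, had 32.5, 43.7 and 26.6 in adult KO and 27.8, 26.5 and 15.4 in embryo KO, against 25.2, 27.3 and 36.0 in adult WT and 309, 375 and 367 in embryo WT. In all 3 genes embryo WT was high and the other 3 groups were low. Nr2e3, a nuclear receptor gene, showed the same order, with 24.1, 38.4 and 42.6 in adult KO and 44.1, 48.8 and 33.3 in embryo KO, against 49.5, 30.6 and 32.0 in adult WT and 424, 475 and 451 in embryo WT. Fcgrt, the receptor that carries maternal antibody across the gut, averaged 773 in adult KO and 615 in embryo KO, against 1064 in adult WT and 12213 in embryo WT, and was too high to test.

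A further set passed 4-fold in KO and stayed within 2-fold in WT. Il18, an epithelial cytokine, had 445, 248 and 239 counts per kb in adult KO and 52.2, 56.9 and 50.2 in embryo KO, against 341, 283 and 313 in adult WT and 532, 400 and 360 in embryo WT. Slc9a3, the apical sodium and proton exchanger, had 65.0, 67 and 105 in adult KO and 11.6, 18.8 and 15.2 in embryo KO, against 233, 300 and 119 in adult WT and 305, 401 and 375 in embryo WT. Both rose in KO, by log2 fold changes of 2.47 ± 0.32 SE for Il18 and 2.36 ± 0.52 SE for Slc9a3, and their contrasts of 0.66 and 0.49 under the pan-epithelial scaling lay within 2-fold. Olfm4 passed 4-fold in WT as well, with 6147, 6143 and 5683 in adult WT and 529, 630 and 685 in embryo WT, but its contrast was 5.93 in KO and 3.28 in WT. Aqp3, a glycerol channel gene, stood past 2-fold in opposite directions, with a contrast of 1.83 in KO, which is 0.028 under the pan-epithelial scaling, and -2.01 in WT.

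**Figure D4:**
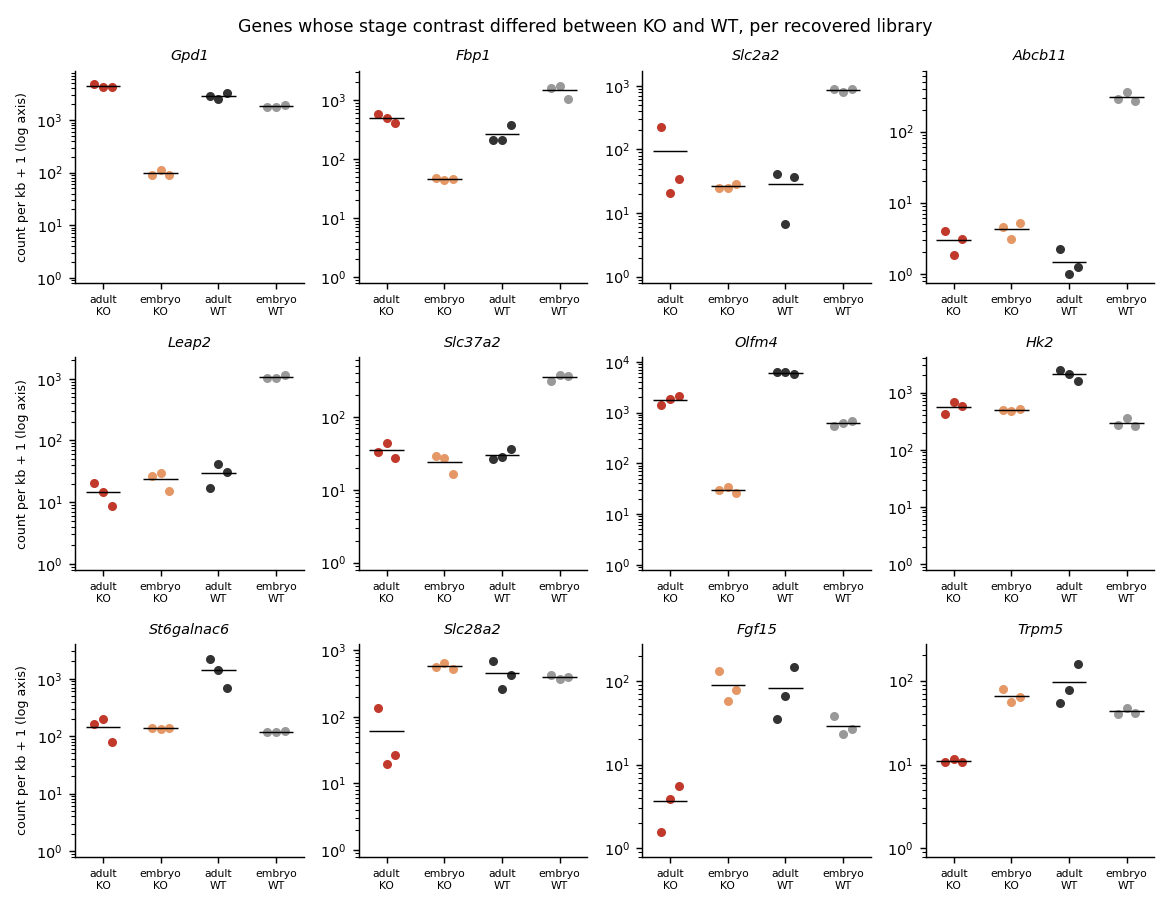
Counts per kb plus 1, on a log axis, in each recovered library of adult KO, embryo KO, adult WT and embryo WT, with bars at the group means, for genes whose KO contrast differed from the WT contrast. In Gpd1 the embryo KO libraries alone are low, and in Leap2 and Abcb11 the embryo WT libraries alone are high.

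Among the genes with a lower contrast in KO, glycan and sugar genes named here lay within 2-fold between the KO stages. This ends under the pan-epithelial scaling, where their KO contrasts were -1.66 for Hk2, -1.77 for St6galnac6 and -1.28 for Gcnt1, and that of Socs1 was -2.09. Hk2, a hexokinase gene, had 428, 687 and 586 counts per kb in adult KO and 487, 470 and 507 in embryo KO, against 2449, 2150 and 1616 in adult WT and 266, 352 and 262 in embryo WT. The KO groups overlapped, and adult WT was apart from embryo WT. St6galnac6, a sialyltransferase gene, had 159, 198 and 77.0 in adult KO and 135, 133 and 137 in embryo KO, against 2236, 1403 and 694 in adult WT and 117, 116 and 122 in embryo WT. Gcnt1, which branches mucin-type glycans, had 36.6, 17 and 14.4 in adult KO and 17.6, 10.2 and 18.8 in embryo KO, against 285, 221 and 249 in adult WT and 14, 18.7 and 15.1 in embryo WT. In both genes the KO groups overlapped and every adult WT library was above every embryo WT library. Socs1, a brake on cytokine signals, had 68.0, 50.6 and 75.0 in adult KO and 68.5, 82.9 and 77.0 in embryo KO, with overlap.

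Fgf15 and Trpm5 fell with stage in KO and had a higher mean in adult WT than in embryo WT, with overlap in Fgf15. Fgf15 had 34.4, 64.1 and 144 counts per kb in adult WT and 36.7, 22.2 and 25.8 in embryo WT, and Trpm5 had 52.7, 76.5 and 157 in adult WT and 38.9, 46.2 and 40.7 in embryo WT. The interaction was -6.46 (adjusted p = 0.0029, limma) for Fgf15 and -3.70 (adjusted p = 0.0013, limma) for Trpm5. Dclk1, a tuft cell kinase, had 25.1, 28.0 and 23.6 in adult KO and 68.2, 48.2 and 62.4 in embryo KO, and fell, with an interaction of -1.77 (adjusted p = 0.018, limma). Slc28a2, a nucleoside transporter gene, had 135, 18.5 and 25.4 in adult KO and 549, 644 and 513 in embryo KO, against 679, 258 and 422 in adult WT and 422, 365 and 394 in embryo WT. Aldh1a2, which makes retinoic acid in mesenchyme, fell in KO by a log2 fold change of -2.29 ± 0.15 SE and had a contrast of -0.88 in WT. Apoa1, the main protein of HDL particles, averaged 9477 in adult KO and 38429 in embryo KO, against 71413 in adult WT and 85799 in embryo WT, and was too high to test.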

How the data were processed

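RNA was measured in 12 libraries, 3 each of adult KO, embryo KO, adult WT and embryo WT. Groups came from the labels. By the methods and the submitters' processing notes, adapters were cut with cutadapt 1.10 and rRNA was filtered out with Bowtie2 2.2.8. STAR 2.5.3a then mapped to mm9, HTSeq counted per Ensembl gene, and the counts were scaled by DESeq2's size factors. The labels name a stranded poly(A) kit and the methods another kit with amplified cDNA, and which was used is not known. The authors deposited 1 mean signal per gene and group, a mean normalized count, together with columns of their own log2 fold changes and adjusted p-values for KO against WT, which were not used. Dividing by transcript length is not stated in the methods. It was found from the values, with median transcript lengths from GENCODE M1 in mm9. Per-sample columns left aside numbered 0. The organoid and tumour files were not used here.

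Members had a mean of at least 10 in either KO column. Since the values are per kb, 1215 members had fewer than 10 mean reads, many of them short RNAs. Contrasts were log2 of values plus 1, which shrinks those of low genes. Whole reads were solved for each gene as 3 integers, a solution being kept where fewer than 0.5 chance solutions were predicted. In adult KO 23250 of 23719 genes tried had a single solution, and when the steps were deliberately set wrong 3 of 22525 did. The tolerance and limits of this step were set after seeing how many genes it solved. Solved reads were tested with voom in limma 3.58.1 over all 12 libraries with size factors recovered from the steps, in R 4.3.3, with Benjamini and Hochberg adjustment over the members. The plan had foreseen folds of means with no test where no counts per library were given, so this test was chosen after seeing the data. It was checked on simulated data. Of the members, 670 could not be tested, 254 of them because a mean was too high. The p-values reflect variation among these libraries only. The members and lists were chosen with earlier results of these data known. Python 3.11.15, numpy 2.4.6 and pandas 2.3.3 were used.

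Genes were named by a rule: Taf4a and Taf4b, the 12 protein coding genes per direction with the largest contrast at a mean of at least 100, at most 4 per list plus 2 that ran against it, and 8 per outcome and direction of the comparison with WT. Some genes of these lists are not reported here. Gprasp2, H2-DMa and the other genes that open a run of neighbours, and Ddx3y, were chosen after their values were seen. Alternatives were other pseudocounts, filters, scalings and thresholds, limma with a trend, and leaving out each library in turn.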

Additional observations from a re-analysis of the deposited data

Results flagged for a closer look

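For the genes below the stage contrast in KO differed from that in WT by the interaction test of limma, at an adjusted p under 0.05 over all 17338 genes tested. The values are the KO contrast minus the WT contrast in log2 units. The difference was positive for Abcb11 (8.86), Slc2a2 (6.43), Fbp1 (5.87), Gpd1 (4.87), Leap2 (4.53), Slc37a2 (4.14), Aqp3 (3.84), Nr2e3 (3.34), Slc9a3 (3.19) and Il18 (2.91). It was negative for Slc28a2 (-3.92), Gcnt1 (-3.51), St6galnac6 (-3.45), Hk2 (-2.62), Socs1 (-2.52) and Aldh1a2 (-1.39). These calls held in all 12 fits that left out 1 library. The genes were picked for the size of this difference in the group means, within classes of the comparison with WT. Their values are thus among the larger ones of those classes and do not describe typical genes. Groups of 3 libraries are too small for a test of outlying samples.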

How the results depend on the processing

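No paired analysis was possible because the recovered libraries carry no replicate number. A pseudocount of 10 gave 784 kept genes higher and 342 lower in adults and 1000 and 811 differing contrasts higher and lower in KO. A minimum mean of 100 gave 1885 genes higher and 1538 lower in adult KO, 818 and 356 kept, and 638 and 549 differing. Without a filter 4566 genes were lower, 66.2% and 52.4% were kept, and 3116 and 2862 differed. The pan-epithelial scaling gave 1073 higher and 13473 lower, 580 and 3711 kept (85.3% of those lower), and 2856 contrasts lower in KO. Protein coding genes alone gave 920 and 882 differing. Other thresholds (4-fold for KO, 2-fold for kept genes, 4-fold for the difference) gave 1665 and 1230, 2549 and 1925, and 532 and 372. In limma the pan-epithelial scaling gave 689 and 12909, and 388 and 1708 for the interaction, and a minimum of 100 per kb gave 1694 and 1456, and 266 contrasts lower in KO. Leaving out 1 library gave 2666 to 2878 genes higher and 2558 to 2776 lower, and for the interaction 475 to 628 higher and 343 to 573 lower. The limma alternatives were added after seeing the data. Of 82 named genes, Ehhadh reversed under the pan-epithelial scaling (-0.55), under which 8 more lost the 2-fold threshold and 11 genes within 2-fold passed it as lower in adult KO, with a change of sign for Taf4a (-1.16), Taf4b (-1.25), Fcgrt, Gcnt1, Hk2, Slc37a2 and St6galnac6, and 1 lost it with a pseudocount of 10. Counts per library exist only through the recovered reads, so DESeq2 was not run. Stage, gut region, Cre line and time since deletion cannot be told apart, and the highest genes have no test.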
